A study of Solanum lycopersicum with 4 samples.

Results

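In tomato gene identifiers, the prefix Solyc00g marks genes that the reference numbering left on no chromosome: they lay on unanchored sequence, gathered as "chromosome 00". In the M82 V1.0 assembly used for these data most of them have a place on a chromosome or on a contig. All Solyc00g genes of the count table were taken, except 17 of 300 that lie together in a block on chromosome 3, which left 283 of 35821 genes. The genes were chosen by identifier and position. The block left out was known from earlier results of these data to be nearly silent in WT. Its 17 genes had 686 and 773 reads in *ddm1* and 7 and 0 in WT, and all 7 of them that were tested were up-regulated, so the counts of up-regulated genes below do not describe all Solyc00g genes.

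The *ddm1* plants were the *Slddm1a/Slddm1b* double mutant and WT was the parental cultivar M82. Leaves were taken at the age of 1 month, always the fourth of a plant, and their poly(A) RNA was sequenced in 2 libraries per genotype, which the study describes as independent biological replicates, without stating how many plants went into each. The p-values therefore measure the spread between these libraries. The *ddm1* libraries held 6610591 and 6887057 counts and the WT libraries 5827940 and 5462981. The *DDM1* genes themselves and nuclear leaf marker genes were not analysed here, because no source used here pairs the nuclear identifiers with gene names. For this reason few identifiers are printed, and the other genes are given by their position and length.

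DDM1 (DECREASE IN DNA METHYLATION 1) is a SNF2-type chromatin remodeler, first described in Arabidopsis, that gives DNA methyltransferases access to nucleosome-bound heterochromatin. Without it, much DNA methylation is lost over pericentromeric repeats, and transposable elements that are normally silent can be transcribed. The loss depends on the cytosine context (H is A, T or C). For the tomato double mutant, the paper cites less CG and CHG but more CHH methylation at transposons of gene-poor regions. Genome regions that resist assembly are often of this kind: long repeats, recent duplications, and copies of organelle DNA inserted into nuclear chromosomes. Genes that were hard to place are therefore of interest in a mutant of heterochromatin, and the question here was how they changed in *ddm1* at their current chromosome and position.

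Of the 283 genes, 224 were on the 12 chromosomes and 59 on 56 contigs. Chromosomes 9 (43 genes), 10 (34), 6 (32), 11 (28) and 8 (26) held most of them, and chromosome 1 held 2. The genes on chromosomes lay in sparsely annotated regions. Their median was 25 annotated genes within 500 kb, against 106 for all genes on chromosomes. A gene was called gene-poor when at most 46 annotated genes lay within 500 kb, the lowest 25% of chromosome genes. By this definition 147 of the 224 (65.6%) were gene-poor. Other Solyc00g genes were counted among the neighbours. The 37 genes of a chromosome 9 block described below had 51 neighbours each, most of them genes of the block itself. They therefore did not count as gene-poor. The genes on chromosomes had a median length of 1150 bp against 2151 bp for all genes on chromosomes, and those on contigs a median of 10352 bp against 3932 bp for all genes on contigs. Lengths ran from 54 to 97011 bp. The identifiers included 66 with a copy suffix, so that 219 distinct identifiers covered the 283 genes. Of the genes, 24 overlapped an annotated gene on the opposite strand and 0 overlapped one on the same strand. Counting was strand-specific, so reads from the strands of such a pair were counted apart.

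Most Solyc00g genes gave no reads in leaves of either genotype. No count was found in any of the 4 libraries for 186 of the 283 (65.7%), against 21.5% of all genes in the table. A count of 0 allows up to 3 counts in a library, which corresponded to 0.424 to 0.565 CPM (counts per 1000000 counts of a library, after TMM scaling) in these libraries, and this limit covers counting error only. A further 91 genes had counts but too few to be tested, and 48 of the 97 genes with counts had no more than 3 over all libraries together. Only 6 genes (2.12%) passed the filter on low counts, against 59.4% of all genes. Reads that fit several places equally well usually receive a low mapping quality and were then not counted, so that a low count of a repeated gene does not show that its RNA was absent.

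The genes with reads were unevenly spread over the chromosomes. All 28 genes on chromosome 11, all 9 on chromosome 3 and both on chromosome 1 had 0 counts in every library. On chromosome 8 the share with 0 counts was 25 of 26, and on chromosome 6 it was 29 of 32. In contrast, 27 of 43 genes on chromosome 9 and 20 of 34 on chromosome 10 had counts. On the contigs 34 of 59 had counts.

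**Figure D1:**
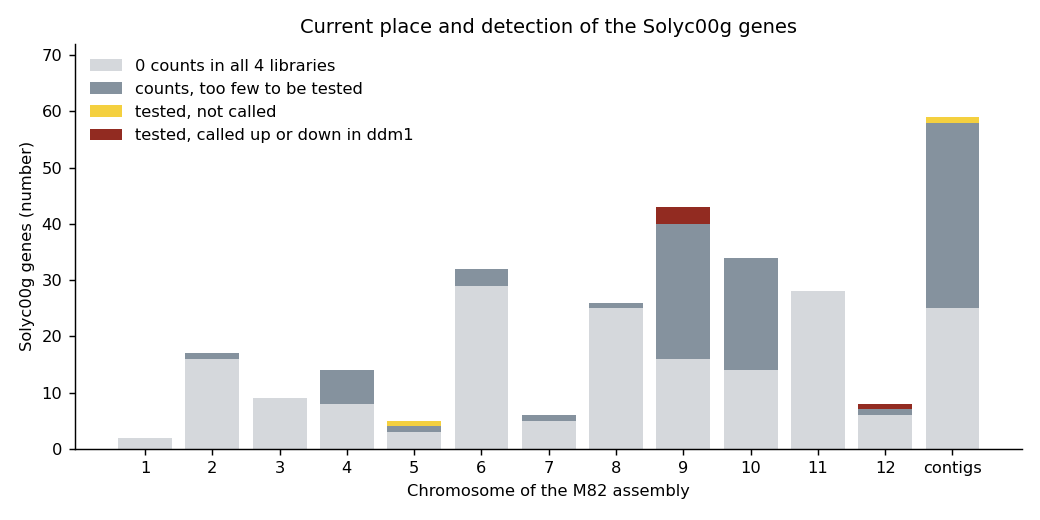
Number of Solyc00g genes (vertical axis) on each chromosome of the M82 assembly and on the contigs (horizontal axis), coloured by whether they had 0 counts in all 4 libraries, counts too few to be tested, or a test by edgeR with or without a call at an adjusted p under 0.05. Chromosome 9 held 3 of the 4 called genes and chromosome 12 the other, while all 28 genes of chromosome 11 had 0 counts.

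Of the 6 Solyc00g genes that could be tested, 2 were up-regulated and 2 were down-regulated in *ddm1* (edgeR quasi-likelihood test, Benjamini-Hochberg adjusted p under 0.05 over the 21289 genes tested). Over all genes tested, 25.3% were up-regulated and 23.7% were down-regulated. With 6 genes tested, no statement on a higher or lower share among Solyc00g genes can be drawn from these counts. The 2 up-regulated genes and the contig gene tested passed the filter only through their *ddm1* libraries. Solyc00g277510.1, a down-regulated gene, passed it only through its WT libraries. For these genes the filter itself favoured a difference between the genotypes. The median log2 fold change of the 6 was 0.48, against 0.02 over all genes tested, but it rested on few genes and had no stable direction, being 0.17 without WT replicate 2, 1.33 without WT replicate 1 and -2.36 with no filter on low counts. Among the gene-poor genes, 2 were tested and 1 of them was down-regulated, while 29.5% of all gene-poor genes tested were up-regulated and 22.0% were down-regulated. Among the other genes on chromosomes, 3 were tested, with 2 up-regulated and 1 down-regulated. The down-regulated gene lay in the chromosome 9 block that missed the gene-poor limit only through the block's own genes.

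The Solyc00g genes together took 0.00612% ± 0.000231 of the counts in *ddm1* and 0.00662% ± 0.00129 in WT (mean ± SD, n = 2 each). Their summed counts were 394 and 433 in the *ddm1* libraries and 439 and 312 in the WT libraries, so the shares of the genotypes overlapped. The sum hid changes in opposite directions at separate places. These were a trio of neighbouring genes on chromosome 9 that was read only in *ddm1*, and blocks on chromosomes 9 and 10 with fewer reads in *ddm1*. The sum also held a repeated gene on contigs, with most reads in a single WT library and no clear direction between the genotypes.

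The trio lay at 5486582-5517852 on chromosome 9, with all 3 genes on the minus strand within 31.3 kb and with no other annotated gene between them. This was not a gene-poor place by the definition above. Solyc00g500231.1 (5512636-5517852, 5217 bp) gave 143 and 156 reads in the *ddm1* libraries, against 0 in both WT libraries. Both *ddm1* libraries were therefore far above both WT libraries, and close to each other. Its level was 21.8 ± 0.395 CPM in *ddm1* (SD, n = 2), at least 40.0-fold higher than the 3 counts per library that a WT value of 0 allows (edgeR, adjusted p = 0.000328).

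Solyc00g500230.1 (5486883-5492555, 5673 bp) gave 84 and 48 reads in the *ddm1* libraries, against 0 in both WT libraries. The *ddm1* libraries differed more from each other here than for its neighbour, but neither came near the WT libraries. The level in *ddm1* was 9.70 ± 4.13 CPM (SD, n = 2), at least 17.8-fold higher than the WT floor (edgeR, adjusted p = 0.00158).

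The third gene of the trio, 163 bp long at 5486582-5486744, gave 8 and 15 reads in the *ddm1* libraries, against 0 in both WT libraries. It was too low to be tested with the filter used. Its level of 1.66 ± 0.649 CPM in *ddm1* was at least 3.06-fold above the WT floor. Per length of the gene span it was nevertheless the most read of the trio, with 35.3 counts per kb in the mean of the 4 libraries, against 14.3 for Solyc00g500231.1 and 5.82 for Solyc00g500230.1. The span includes introns, so counts per kb here and below do not rank the genes by RNA per transcript length. When the filter was loosened to a minimum count of 5, an alternative chosen after the counts were seen, this gene too was up-regulated (edgeR, adjusted p = 0.0093, and 0.0126 with no filter on low counts). It passed the looser filter through its *ddm1* reads alone, so this call adds nothing separate to its counts. The 163-bp gene lies directly downstream of Solyc00g500230.1 on the same strand. Whether its reads came from transcripts of Solyc00g500230.1 was not tested.

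The nearest tested genes on either side of the trio were not Solyc00g genes. The one to the left (5334009-5336018, 151 kb away) gave 271 and 258 reads in *ddm1* against 115 and 86 in WT. It was up-regulated, with a log2 fold change of 1.09 (SE 0.18, edgeR adjusted p = 0.00319), but unlike the trio it was also read in WT. The one to the right (5566485-5567467, 48.6 kb away) gave 110 and 144 reads in *ddm1* against 139 and 147 in WT, with a log2 fold change of -0.49 that did not pass the test (SE 0.20, edgeR adjusted p = 0.0854). On chromosome 9 as a whole, up-regulated genes made up 26.1% and down-regulated genes 23.3% of those tested.

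**Figure D2:**
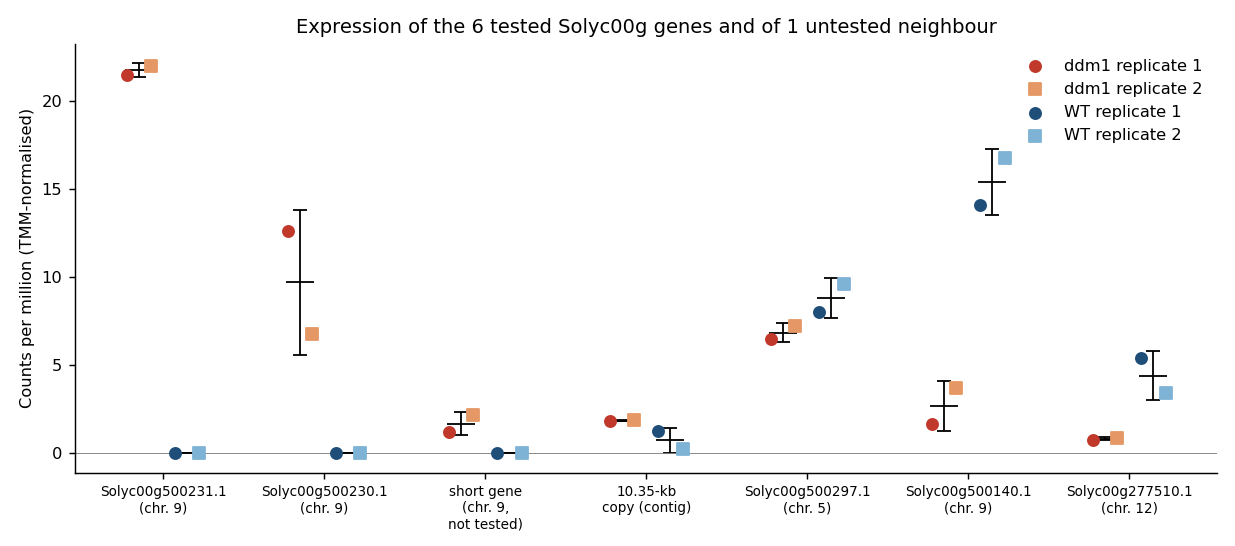
TMM-normalised CPM (vertical axis) in each library for the 6 tested Solyc00g genes and for the untested 163-bp gene of the chromosome 9 trio (horizontal axis). Points are libraries, and the black bars are the mean and SD of each genotype (n = 2). The trio of genes at the left was at 0 in both WT libraries, and Solyc00g500140.1 and Solyc00g277510.1 at the right were lower in both *ddm1* libraries than in either WT library.

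A larger block lay elsewhere on chromosome 9, at 32914813-33036959. Here 37 Solyc00g genes and 3 other genes filled 122 kb, and 24 of the 37 had counts. Their counts were lower in *ddm1*. Together the 37 genes gave 27 and 41 reads in the *ddm1* libraries, against 149 and 161 in the WT libraries. Both WT libraries were thus above both *ddm1* libraries by a wide margin. The summed level was 4.93 ± 1.23 CPM in *ddm1* and 28.1 ± 3.09 CPM in WT (SD, n = 2 each), a log2 ratio of -2.51. A permutation of 2 libraries against 2 cannot give an exact p below 0.33, so the sum was not tested.

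One gene of this block, Solyc00g500140.1 (32964394-32964795, 402 bp, minus strand), passed the filter and was down-regulated. It gave 11 and 26 reads in the *ddm1* libraries, against 81 and 89 in the WT libraries. The genotypes did not overlap, though the *ddm1* libraries were further apart than the WT libraries. Its level was 2.66 ± 1.43 CPM in *ddm1* and 15.4 ± 1.88 CPM in WT (SD, n = 2 each), with a log2 fold change of -2.52 (SE 0.41, edgeR adjusted p = 0.00317). It was also the Solyc00g gene with most counts per length, at 129 counts per kb in the mean of the 4 libraries.

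The lower level of the block did not rest on this gene alone. Without it, the other 36 genes gave 16 and 15 reads in the *ddm1* libraries, against 68 and 72 in the WT libraries. These sums were again well apart, at 2.26 ± 0.201 CPM in *ddm1* and 12.7 ± 1.21 CPM in WT (SD, n = 2 each), a log2 ratio of -2.49. Over the 37 genes, 12 had more CPM in both WT libraries than in both *ddm1* libraries (10 by raw counts) and 0 had the reverse on either scale. The share of genes with such an order over the whole genome was not determined, so these numbers only describe the block. All 24 genes with counts were read in at least 1 WT library, and 13 of them in at least 1 *ddm1* library.

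Among the untested genes of the block, most of the reads came from its right-hand part. A 1062-bp gene (33005917-33006978) gave 3 and 2 reads in the *ddm1* libraries, against 17 and 5 in the WT libraries. Its 1529-bp neighbour (33003874-33005402) gave 0 and 1 reads in *ddm1* against 4 and 10 in WT. A 659-bp gene (32999301-32999959) had 0 in both *ddm1* libraries and 6 and 9 in WT. In all 3, each WT library was above each *ddm1* library, but the counts were low and the WT libraries differed between themselves. With the looser minimum count of 5, the 659-bp gene was down-regulated as well (edgeR, adjusted p = 0.00906, and 0.015 with no filter on low counts). The 1062-bp gene passed with the minimum count of 5 but not with no filter (edgeR, adjusted p = 0.0425 and 0.0563). Both genes entered the looser filter through their WT reads alone, so these calls add nothing separate to the counts. The 1529-bp gene was tested only with no filter, where it passed (edgeR, adjusted p = 0.0396). The outermost gene, 2102 bp long, gave closer counts, with 5 and 4 reads in *ddm1* against 5 and 10 in WT.

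The nearest tested genes on either side of the block were not down-regulated. The nearest tested gene to the left of Solyc00g500140.1 outside the Solyc00g genes (32888689-32890584, 73.8 kb away) gave 14 and 32 reads in the *ddm1* libraries, against 0 in both WT libraries, and was up-regulated (edgeR, adjusted p = 0.00539). It passed the filter only through its *ddm1* libraries, so the filter itself favoured this direction. The nearest to the right (33257560-33272478, 293 kb away) gave 540 and 450 reads in *ddm1* against 602 and 448 in WT, and its log2 fold change of -0.39 did not pass the test (SE 0.16, edgeR adjusted p = 0.0912).

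**Figure D3:**
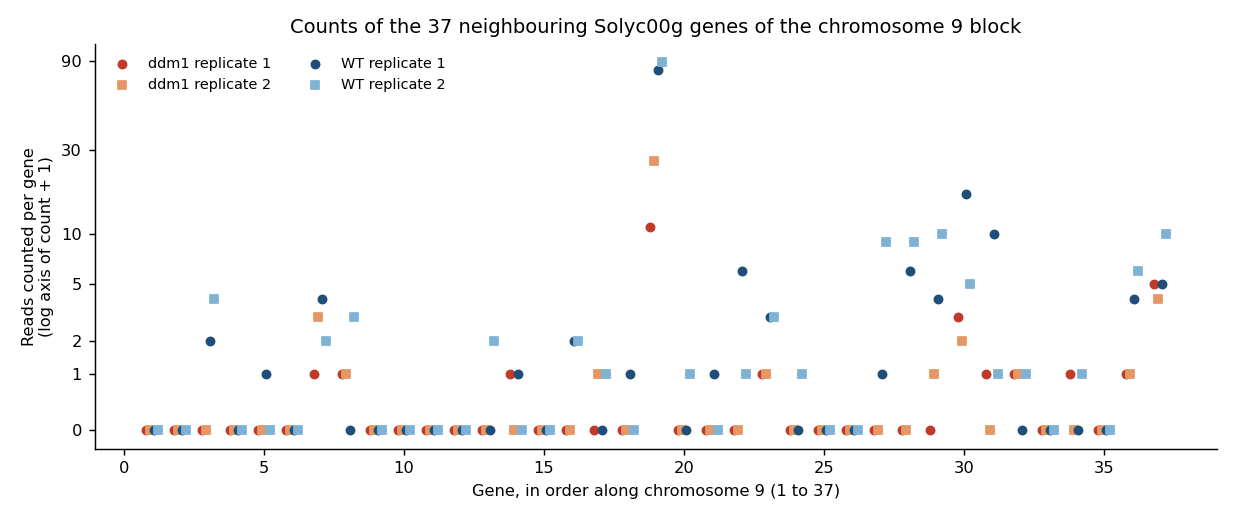
Reads counted per gene (vertical axis, log axis of count + 1) for the 37 neighbouring Solyc00g genes of the chromosome 9 block, in order along the chromosome (horizontal axis), with a point for each library. The highest gene is Solyc00g500140.1, with 81 and 89 counts in WT and 11 and 26 in *ddm1*. In 10 genes both WT libraries had more reads than both *ddm1* libraries. The share of genes with such an order over the whole genome was not determined, so this number only describes the block.

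A block of 16 Solyc00g genes on chromosome 10 (15285540-15355323, 69.8 kb) also had fewer reads in *ddm1*, at a lower level. It gave 7 and 14 reads in the *ddm1* libraries, against 38 and 37 in the WT libraries, and again both WT libraries were above both *ddm1* libraries. The summed level was 1.52 ± 0.655 CPM in *ddm1* and 6.79 ± 0.248 CPM in WT (SD, n = 2 each), a log2 ratio of -2.16. Of its 16 genes, 11 had counts and 0 could be tested. In 6 of them both WT libraries were above both *ddm1* libraries in CPM (5 by raw counts), and in 0 the reverse. Here too the share of such genes over the whole genome was not determined.

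The reads of the chromosome 10 block came mainly from 3 genes. A 3654-bp gene (15304402-15308055) gave 0 and 1 reads in the *ddm1* libraries, against 8 and 11 in the WT libraries. A 1242-bp gene (15344978-15346219) had 0 and 4 in *ddm1* and 7 and 10 in WT. A 429-bp gene (15333794-15334222) had 4 and 5 in *ddm1* and 9 and 7 in WT. Each was lower in both *ddm1* libraries, and the 3654-bp gene was down-regulated with the minimum count of 5 (edgeR, adjusted p = 0.009, and 0.0143 with no filter on low counts). That gene entered the looser filter through its WT reads alone.

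The chromosome 9 and chromosome 10 blocks also resembled each other, and the plastid genome, in the lengths of part of their genes and the spacing of a few. This description was made after the counts were seen, and no sequences were compared. Of the 53 genes in both blocks, all at least 300 bp long, 25 (47.2%) had a length within 3 bp of a plastid protein-coding gene of the same minimum length. The same held for 24 of 215 other Solyc00g genes (11.2%) and for 2864 of 32348 chromosome genes (8.85%). Of the 16 genes of the chromosome 10 block, 7 had a length within 3 bp of a gene of the chromosome 9 block.

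Spacing was compared only for the pairs of plastid genes named here. How many other pairs of plastid genes have a match in the blocks was not determined. In the plastid genome, *psbA*, which encodes the D1 protein of photosystem II, is 1062 bp long and lies 525 bp from *matK*, the maturase gene of 1530 bp. A 1062-bp and a 1529-bp gene lay 525 bp apart on chromosome 10 (15334910-15338025) and 514 bp apart on chromosome 9 (33003874-33006978). *atpA* and *atpF*, which encode subunits of the plastid ATP synthase, are 1524 and 1241 bp long and 55 bp apart. On chromosome 10, genes of 1524 and 1242 bp also lay 55 bp apart (15343399-15346219). No such pair was found in the chromosome 9 block. The lengths of 1062, 1529 and 1524 bp are also within 3 bp of other plastid genes, so length alone does not name these genes.

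The plastid genes were lower in *ddm1* too, in the same libraries. Of the 70 plastid genes tested, 59 were down-regulated and 0 were up-regulated in *ddm1*, and all plastid genes together took 0.0869% ± 0.00429 of the counts in *ddm1* and 0.190% ± 0.0116 in WT (SD, n = 2 each). *matK* gave 166 and 230 reads in *ddm1* against 375 and 421 in WT, with a log2 fold change of -1.33 (SE 0.17, edgeR adjusted p = 0.00141). *atpA* gave 27 and 46 reads in *ddm1* against 164 and 187 in WT, with a log2 fold change of -2.58 (SE 0.29, edgeR adjusted p = 0.000841). Both were lower in each *ddm1* library than in either WT library. *psbA* fell by 1.05 on the log2 scale (SE 0.35, edgeR adjusted p = 0.0439) and *atpF* by 1.33 (SE 0.22, edgeR adjusted p = 0.0033). *atpE*, another plastid ATP synthase gene, has the length of Solyc00g500140.1, 402 bp, and its log2 fold change of -0.42 did not pass the test (SE 0.15, edgeR adjusted p = 0.0608). What part the plastid RNA had in the lower counts of the blocks was not tested. In bulk leaf RNA, fewer cells of a type and less RNA per cell cannot be told apart.

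The other down-regulated gene was Solyc00g277510.1 on chromosome 12 (16473814-16474014, 201 bp, minus strand), in a gene-poor region with 5 annotated neighbours within 500 kb. It gave 5 and 6 reads in the *ddm1* libraries, against 31 and 18 in the WT libraries. The genotypes did not overlap, and the WT libraries were further apart than the *ddm1* libraries. Its level was 0.800 ± 0.0683 CPM in *ddm1* and 4.39 ± 1.42 CPM in WT (SD, n = 2 each), with a log2 fold change of -2.43 (SE 0.48, edgeR adjusted p = 0.00626). Over its short length this was 74.6 counts per kb in the mean of the 4 libraries.

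The nearest tested gene to the left, 177 kb away, gave 499 and 614 reads in *ddm1* against 808 and 960 in WT, and fell by 0.99 on the log2 scale (SE 0.15, edgeR adjusted p = 0.00242). To the right, the nearest tested gene was 3229 kb away and gave 99 and 103 reads in *ddm1* and 0 in both WT libraries (edgeR, adjusted p = 0.00049). That gene passed the filter only through its *ddm1* libraries. These neighbours thus changed in opposite directions. The other 7 Solyc00g genes on chromosome 12 had 1 count between them, and over all genes tested on this chromosome 26.1% were up-regulated and 23.0% were down-regulated.

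Solyc00g500297.1 on chromosome 5 (31301489-31301917, 429 bp, minus strand), also in a gene-poor region, was tested but not called. It gave 43 and 51 reads in the *ddm1* libraries, against 46 and 51 in the WT libraries. Its level was 6.83 ± 0.528 CPM in *ddm1* and 8.81 ± 1.13 CPM in WT (SD, n = 2 each). Both WT libraries were above both *ddm1* libraries on the CPM scale, but the log2 fold change of -0.36 did not pass the test (SE 0.30, edgeR adjusted p = 0.349). It was second in counts per length, with 111 counts per kb. Its nearest tested neighbours outside the Solyc00g genes, 46.0 and 93.2 kb away, had log2 fold changes of 0.09 and -0.16, and neither passed the test (edgeR, adjusted p = 0.571 and 0.266).

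Smaller differences stood at other places among genes too low to be tested. Of the 91 untested genes with counts, 38 had counts in WT only, 20 in *ddm1* only and 33 in both. In 27 of them both WT libraries were above both *ddm1* libraries in CPM (22 by raw counts), and in 8 both *ddm1* libraries were above both WT libraries (9 by raw counts). A single read per library can decide such an order. These numbers are not calls and are not comparable with the shares of 25.3% and 23.7% of all genes tested that were called up- and down-regulated. The share of such an order among all genes was not determined.

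Of the untested genes, a 312-bp gene on chromosome 4 (52420024-52420335) was at 0 in the *ddm1* libraries and gave 5 and 18 reads in the WT libraries. It was at least 4.87-fold lower in *ddm1*, with the floor of 3 counts per library, and the WT libraries were far apart. With 18.4 counts per kb it was among the 5 genes with most counts per length. A 20015-bp gene on chromosome 6 (9565362-9585376), in a very gene-poor region with 4 neighbours, gave 9 and 7 reads in the *ddm1* libraries, against 0 in both WT libraries, at least 2.15-fold higher in *ddm1*. With the minimum count of 5, both passed the test, in opposite directions (edgeR, adjusted p = 0.0151 and 0.0122, and 0.0147 and 0.022 with no filter on low counts). Each entered the looser filter only through the genotype in which it had reads.

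A second block on chromosome 10 was higher in *ddm1*. Its 13 Solyc00g genes (3737538-3893055, 156 kb) gave 11 and 10 reads in the *ddm1* libraries, against 3 and 0 in the WT libraries. The summed level was 1.53 ± 0.169 CPM in *ddm1* and 0.261 ± 0.369 CPM in WT (SD, n = 2 each), without overlap, but it rested on very few reads. In 3 of its genes both *ddm1* libraries were above both WT libraries, with no share over all genes to set beside this number. The most read were a 1372-bp gene (3777804-3779175) with 1 and 6 counts and a 4607-bp gene (3869186-3873792) with 5 and 2 counts in *ddm1*, both at 0 in WT.

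Blocks of this kind were common among the Solyc00g genes, and many had no reads. With a block defined as at least 3 Solyc00g genes without a gap over 200 kb, 172 of the 224 genes on chromosomes lay in 21 blocks. In 12 of these, with 76 genes, no read was counted in any library. The largest of these were on chromosome 11 (18618918-19117214, 12 genes over 498 kb), on chromosome 8 (11883722-11981327, 11 genes over 97.6 kb, and 11075944-11258794, 9 genes over 183 kb) and on chromosome 6 (14040771-14447423, 9 genes over 407 kb). Of the 9 blocks with reads, 2 held a called gene, both on chromosome 9, with the trio up-regulated and the block of 37 containing the down-regulated Solyc00g500140.1. The 201 genes outside both chromosome 9 blocks and outside the repeated contig gene described next gave 82 and 105 reads in the *ddm1* libraries, against 144 and 132 in the WT libraries, or 13.6 ± 1.78 CPM and 24.97 ± 0.155 CPM (SD, n = 2 each). They still included the chromosome 10 block of 16 genes, Solyc00g277510.1 and the 312-bp gene on chromosome 4, all lower in *ddm1* as given above. That block alone gave 7 and 14 reads in *ddm1* against 38 and 37 in WT. The lower sum is therefore no separate result on the remaining genes.

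**Figure D4:**
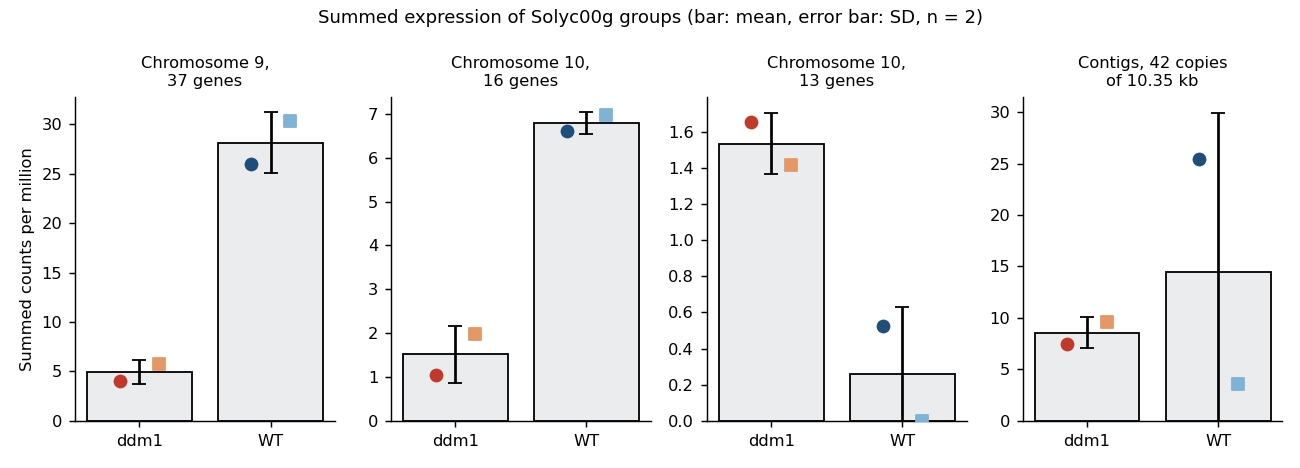
Summed TMM-normalised CPM (vertical axes, each from 0 with its own scale) of 4 groups of Solyc00g genes in *ddm1* and WT. Bars are means, error bars are the SD (n = 2) and are not drawn below 0, circles are replicate 1 and squares are replicate 2. The blocks of 37 and 16 genes were lower in *ddm1* and the block of 13 genes was higher, without overlap, while the WT libraries of the contig copies stood on either side of the *ddm1* libraries.

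On the contigs the reads came mainly from one repeated gene. Solyc00g500268.1 was annotated in 42 copies, each on a contig of its own and 10351 to 10353 bp long, of which 34 were exactly 10352 bp. Copies that share an identifier and nearly a length may also share reads that cannot be assigned reliably, and the value of a single copy is therefore uncertain. Counts were found for 30 of the 42.

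The copies together gave 50 and 68 reads in the *ddm1* libraries, against 146 and 19 in the WT libraries. WT replicate 1 was thus the highest library and WT replicate 2 the lowest, with both *ddm1* libraries between them. The summed level was 8.56 ± 1.48 CPM in *ddm1* and 14.5 ± 15.4 CPM in WT (SD, n = 2 each). The means of the genotypes differed by less than the SD in WT. Their log2 ratio of -0.76 became 1.26 when WT replicate 1 was left out, so that no direction can be given.

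The excess in WT replicate 1 was spread over many copies. It had counts in 27 copies, against 11 in WT replicate 2 and 12 in each *ddm1* library, and 13 copies were read in this library alone. A copy with 33 counts in WT replicate 1 had 0 in the other 3 libraries. Another copy had the opposite pattern, with 10 and 29 reads in *ddm1* against 2 and 1 in WT, and was up-regulated with the minimum count of 5 (edgeR, adjusted p = 0.0157, and 0.0167 with no filter on low counts). This copy entered the looser filter through its *ddm1* reads alone. The only copy that passed the main filter gave 12 and 13 reads in *ddm1* against 7 and 1 in WT, with a log2 fold change of 1.32 that did not pass the test (SE 0.70, edgeR adjusted p = 0.163). Without WT replicate 1 it was 3.15 and passed (edgeR, adjusted p = 0.0404).

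WT replicate 1 also stood apart in the plastid ribosomal RNA genes. These gave 180 and 153 reads in the *ddm1* libraries, against 976 and 355 in the WT libraries. On the CPM scale, WT replicate 1 was 2.54 times WT replicate 2 for these genes and 7.11 times for the contig copies, but 1.02 times for the plastid protein-coding genes. Whether the contig copies and the ribosomal RNA share a source was not tested. The 69 genes on contigs outside the Solyc00g genes gave 54 and 66 reads in *ddm1* against 31 and 6 in WT. There too WT replicate 1 was above WT replicate 2, 4.78 times on the CPM scale, but both were below the *ddm1* libraries.

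**Figure D5:**
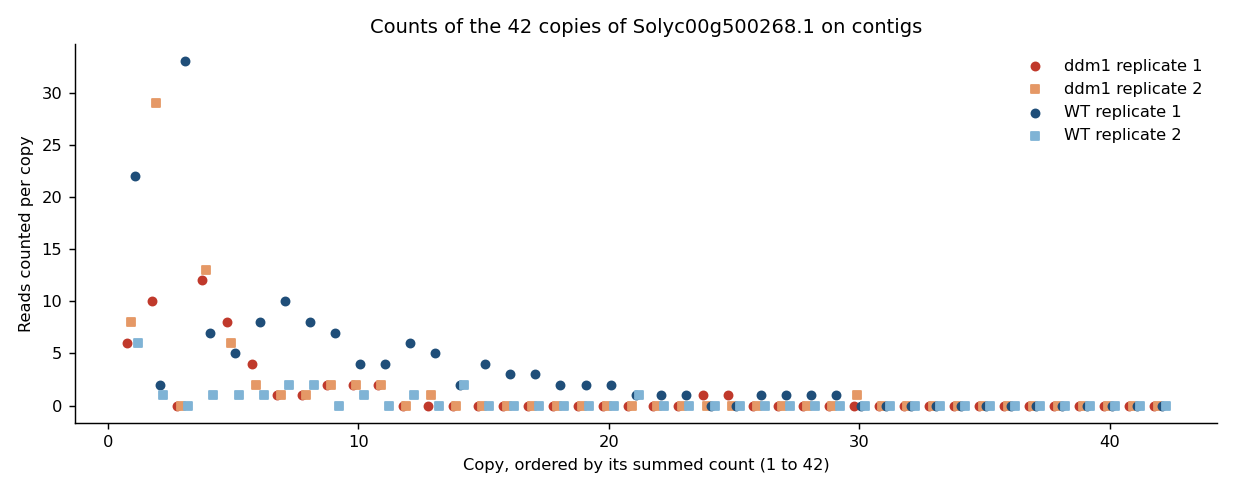
Reads counted per copy (vertical axis) of the repeated gene Solyc00g500268.1 in each of the 4 libraries, with its 42 copies ordered by their summed count (horizontal axis). Dark blue points of WT replicate 1 lie above the other libraries in many copies, while the second copy is highest in *ddm1* replicate 2, with 29 counts.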

How the data were processed

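Poly(A) RNA was sequenced from *ddm1* and WT leaves. Trimming of the single-end reads was by Trimmomatic 0.38 and mapping by HISAT2, against the M82 V1.0 assembly, and the authors deposited raw counts per gene from featureCounts 2.0.0. Per the file header, counting was reverse-stranded, over the whole gene span (35819 of 35821 genes have 1 interval, so intronic reads are included), limited to a mapping quality of 30 or more, and on reads from which duplicates had been removed. All 4 columns of counts were used, and 0 columns of per-sample values were left out.

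Counts were filtered with filterByExpr (minimum count 10), scaled by TMM and tested with edgeR 4.0.16 in R 4.3.3 (glmQLFit, glmQLFTest, genotype as the only term), with Benjamini-Hochberg adjustment over all genes tested. The SE is the log2 fold change divided by the root of F. The procedure was tested on simulated counts. Alternatives were DESeq2 1.42.0, RLE and upper-quartile factors, other count filters, each library left out, a replicate block, stricter call thresholds, copies or overlapping genes left out, and other definitions of gaps and gene-poor regions. Replicates differed beyond sampling noise (chi-square per degree of freedom 4.40 in WT and 5.21 in *ddm1*), and each library counted as 1 sample.

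The members and the lists were chosen with earlier results of these data known. Named genes were, in each direction, up to 10 called genes with the largest fold change whose genotypes did not overlap and whose mean log2 CPM was 1 or higher, the 5 genes with most counts per kb, and the genes of the up to 3 blocks with most called genes. Only 2 blocks held a called gene. Other genes were chosen after their counts were seen. Of the identifiers, 142 plastid genes and 0 nuclear genes matched a RefSeq name (names of assembly SLM_r2.1, no coordinates taken from it).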

Additional observations from a re-analysis of the deposited data

How the results depend on the processing

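The 4 called genes kept their direction and their call in every alternative in which they were tested. The number of Solyc00g genes tested, 6, became 97 with no filter on low counts, 18 with a minimum count of 5 (added after the data were seen) and 2 with at least 10 counts in every library. The up-regulated genes then numbered 5, 5 and 0 instead of 2, the down-regulated genes 6, 6 and 1 instead of 2, and the median log2 fold change was -2.36, -1.08 and -1.39 instead of 0.48. Up-regulated genes at the WT floor numbered 5, 5 and 0 instead of 2. Down-regulated genes at the *ddm1* floor numbered 4 and 4 instead of 0 with the looser filters. Gene-poor genes numbered 1 and 1 up-regulated instead of 0, and 2, 2 and 0 down-regulated instead of 1. These settings changed which genes were tested as well as how many.

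The median was -0.36 without copies, 1.32 without overlapping genes, and 0.17 to 1.33 with a library left out. It rests on 6 genes and has no stable direction. The log2 ratio of the share of counts, -0.11, was 0.013 without copies, 0.016 without the contig copies (added), and -0.30 to 0.10 with a library left out. That of the contig copies, -0.76, ran from -1.57 to 1.26. In both, the value without WT replicate 1 was the positive one. For the blocks it ran from -2.79 to -2.28 (37 genes) and from -2.69 to -1.78 (16 genes).

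The replicate numbers did not pair the libraries, since the deviations of same-numbered libraries had a correlation of 0.0036. They were read from the titles of the samples. For *ddm1*, the library names in the labels hold 2 and 3 instead of 1 and 2, so the numbers of the block are themselves uncertain. A replicate block in the fit left 2 up-regulated and 2 down-regulated genes (edgeR, adjusted p = 0.000629, 0.00179, 0.00314 and 0.0146), and the median was 0.53. Depth limits most of these genes: a change below 3 counts per library was not detectable, and low values of repeated genes depend on the mapping quality filter.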
